A study of Rattus norvegicus with 10 samples.

Results

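Imprinted genes are expressed mainly from the copy inherited from 1 parent, and 10 of those tied to growth were followed here in the paraventricular nucleus of the rat hypothalamus: Plagl1, Dlk1, Peg3, Ndn, Mest, Snrpn, Gnas, Cdkn1c, H19 and Grb10. Every probe set whose platform annotation gave exactly 1 of these symbols was taken, which made 13 of 31042 probe sets and covered 9 of the 10 genes, of 14217 genes with such a probe set on the array, with none for Peg3. The genes were selected on a family known to be imprinted, but with signal differences between the groups of these same arrays already known. The differences of all members are thus given below as descriptions. Calls of the fit for members are listed below but are not read as tests. The samples were 5 RNA pools of rats after 3 days of dehydration and 5 of control rats, all male Sprague Dawley rats of 10 to 12 weeks with no genetic change named. Nuclei of 5 animals went into each pool, described as independent, and each pool was read on 1 Affymetrix array of the rat genome (Rat Genome 230 2.0). The spread below is thus between pools, and single animals cannot be seen. The sample labels name the paraventricular nucleus, and the design text names the supraoptic nucleus at 1 place; the sample labels were followed. Nothing further was stated about how the control animals were kept, and no hybridisation batch was given, so a batch of arrays and the group cannot be told apart.

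Imprinting marks are set in the germ line as DNA methylation and decide which parental copy is read. Many imprinted genes regulate prenatal growth, paternally expressed ones often promoting it and maternally expressed ones often restraining it, and in mouse Plagl1 was described as a hub of a network of such genes. Several of them stay active in the adult hypothalamus, where loss of the paternally read genes of the Prader-Willi region disturbs feeding, growth and hormone release. An array signal sums both parental copies, so none of the values below shows which copy was read, and in tissue RNA fewer cells of a type and less RNA per cell cannot be told apart.

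The promoters of the members are shown because CpG-rich sequence is the kind on which imprinting marks lie. RefSeq windows of 300 bases on build GRCr8, 250 before to 50 after the transcription start, were found for 8 of the 10 genes, 10 windows in all because Gnas has several starts. All 10 held more CpG dinucleotides than the median window of the table, which held 7. Not all were rich in CpG, since those of Snrpn, 1 Gnas start and Ndn held 11, 12 and 14. Whether an imprinting mark lies in any of these windows was not tested. The windows of Plagl1 and Dlk1, the members with the largest differences among the leading probe sets, held 29 and 45, and are printed 5′ to 3′ with each CpG in capitals. That of Plagl1 lies at chr1:9297214-9297513 on the plus strand and that of Dlk1 at chr6:134192347-134192646 on the plus strand.
Plagl1: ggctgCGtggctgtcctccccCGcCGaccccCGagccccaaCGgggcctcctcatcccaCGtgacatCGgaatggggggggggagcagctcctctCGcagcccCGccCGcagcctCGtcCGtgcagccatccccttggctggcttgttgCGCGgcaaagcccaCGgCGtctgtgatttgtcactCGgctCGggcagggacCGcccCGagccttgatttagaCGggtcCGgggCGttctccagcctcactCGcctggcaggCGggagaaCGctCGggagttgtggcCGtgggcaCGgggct
Dlk1: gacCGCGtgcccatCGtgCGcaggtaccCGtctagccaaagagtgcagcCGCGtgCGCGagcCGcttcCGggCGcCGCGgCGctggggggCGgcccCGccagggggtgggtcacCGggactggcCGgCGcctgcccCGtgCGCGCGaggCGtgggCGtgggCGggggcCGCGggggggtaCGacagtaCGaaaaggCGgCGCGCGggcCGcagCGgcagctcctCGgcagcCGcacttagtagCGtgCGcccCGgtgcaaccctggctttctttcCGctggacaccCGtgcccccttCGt

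The Plagl1 protein binds GC-rich DNA, and the palindrome GGGGCCCC, which reads the same on both strands, was searched as a word this factor is known to bind. It was present in 0.858% of the 33469 windows in the table and in 2 of the 10 member windows, those of Peg3 and of 1 Gnas start. The Gnas window, at chr3:183502993-183503292 on the plus strand, has the match beginning 34 bases before the start, and the match is in capitals. A match is a run of letters and not a shown binding site.
Gnas: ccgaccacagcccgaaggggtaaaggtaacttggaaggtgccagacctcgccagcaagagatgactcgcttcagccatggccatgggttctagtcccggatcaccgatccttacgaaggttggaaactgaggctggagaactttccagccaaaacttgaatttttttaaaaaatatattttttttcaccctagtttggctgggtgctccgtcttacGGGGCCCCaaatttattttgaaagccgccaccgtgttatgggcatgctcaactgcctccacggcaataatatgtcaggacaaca

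Signals below are linear probe set signals as deposited. Log2 differences are dehydrated minus control on log2(signal + 3.72), with the standard error of a limma fit over the 18629 probe sets whose mean signal reached 24.1, the 40th percentile. Of the 13 member probe sets 12 passed that filter, at least 1 for each of the 9 genes, and a further probe set of Grb10 did not. A signal of 1 probe set is not compared with that of another, because each has its own probes.

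Array medians ran from 36.4 to 39.1. The first principal component set control replicate 5 apart, with a score of 37.2 where the rest ran from -14.4 to 3.69, and its array weight was the lowest, 0.385. Dehydrated replicate 2 was the only dehydrated array whose mean correlation with the control arrays, 0.9791, was above that with its own group, 0.9786. As a sign of RNA quality, the 3′ over 5′ log2 ratio of Gapdh controls averaged 1.58 on dehydrated and 1.41 on control arrays (exact two-sided permutation p = 0.254, n = 5 each). Control replicate 5 had the lowest Gapdh ratio, 1.05, where the other arrays ran from 1.34 to 1.84. Its beta-actin ratio was also the lowest, 2.16, where the others ran from 2.60 to 3.07. The part of RNA quality in the values of control replicate 5 was not tested. Of 8 genes listed as markers of the nucleus 7 passed the filter. Otp was under it, at 14.2 ± 3.37 in dehydrated and 5.66 ± 2.63 in control pools. Avp averaged 4957 ± 642 in dehydrated and 3531 ± 633 in control pools (SD, n = 5 each), and the transcription factor gene Sim1 79.2 ± 16.5 and 62.1 ± 15.4. Crh averaged 320 ± 89.7 in dehydrated and 282 ± 94.3 in control pools, and Trh 651 ± 44.7 and 615 ± 56.5. Whether the tissue was the paraventricular or the supraoptic nucleus was not tested.

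Plagl1 was lower in dehydrated pools. It encodes a zinc finger transcription factor, also called Zac1, that is read from the paternal copy and halts the cell cycle when overexpressed. Its only probe set (1387122_at) had 91.9, 128.4, 128.3, 112.1 and 107.1 in dehydrated pools 1 to 5, and 240.1, 186.4, 274.4, 193.6 and 132 in control pools 1 to 5. All 5 dehydrated pools lay below all 5 control pools, but the gap was narrow, since control replicate 5 at 132 was next to dehydrated replicates 2 and 3. The means were 114 ± 15.4 in dehydrated and 205 ± 54.4 in control pools (SD, n = 5 each), a ratio of 0.553 and a log2 difference of -0.80 ± 0.15. The pools of the control group were the more variable, with a coefficient of variation of 13.6% in dehydrated and 26.5% in control pools. Without control replicate 5 the log2 difference was -0.95, and without control replicate 3, the highest, it was -0.69.

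Dlk1 was higher in dehydrated pools. It encodes a transmembrane protein with EGF-like repeats, read from the paternal copy, whose shed form holds back adipocyte differentiation and which is found in hypothalamic neurons of rodents. Its only probe set (1369151_at) had 218.6, 193.6, 231.2, 214.5 and 199.1 in dehydrated pools 1 to 5, and 142.8, 166.5, 161.6, 140 and 147.6 in control pools 1 to 5. The lowest dehydrated pool, replicate 2, stood clear of the highest control pool, also replicate 2. Means were 211 ± 15.2 in dehydrated and 152 ± 11.7 in control pools (SD, n = 5 each), a ratio of 1.39 and a log2 difference of 0.47 ± 0.08. The spread was alike in both groups, with coefficients of variation of 7.18% in dehydrated and 7.73% in control pools. Leaving out any single array kept the log2 difference between 0.44 and 0.50.

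**Figure D1:**
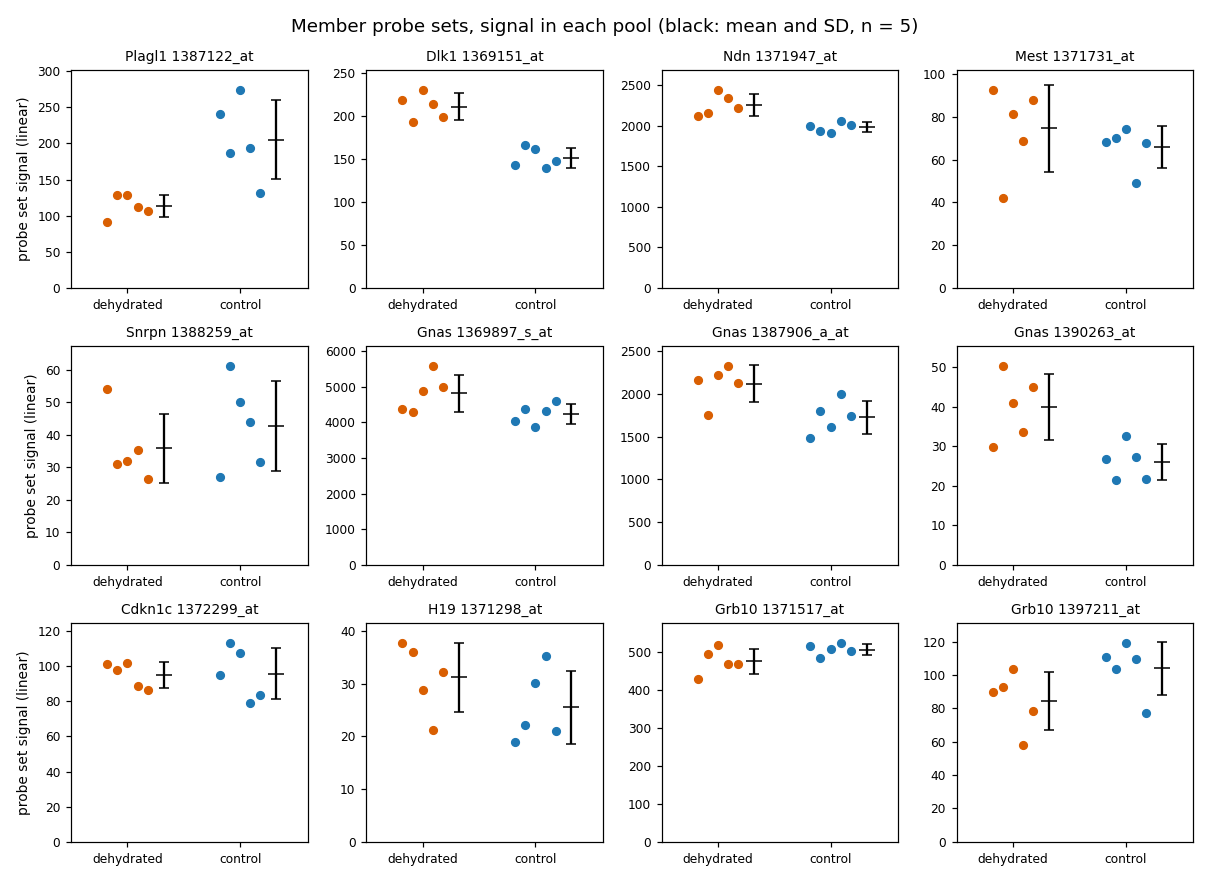
Linear signal of the 12 member probe sets that passed the filter, in each of 5 dehydrated (orange) and 5 control (blue) pools, each panel on its own axis from 0, with the mean and SD in black. Plagl1 lies below 129 in every dehydrated pool and at 132 or more in every control pool, Dlk1 and Ndn lie higher in every dehydrated pool, and the other panels overlap.

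Ndn and Snrpn belong to the Prader-Willi region and are read from the paternal copy. Ndn encodes necdin, a MAGE family protein of postmitotic neurons. Its probe set (1371947_at) had 2113, 2149.6, 2442.9, 2337.5 and 2213.7 in dehydrated pools 1 to 5, and 1994.9, 1936.1, 1910.7, 2057.3 and 2002.6 in control pools 1 to 5. Every dehydrated pool was above every control pool, by a small step, with means of 2251 ± 137 and 1980 ± 58.0 (SD, n = 5 each) and a log2 difference of 0.18 ± 0.05, which was 0.15 to 0.21 when single arrays were left out. Snrpn encodes the SmN protein of the spliceosome. Its single-symbol probe set (1388259_at) averaged 35.9 ± 10.7 in dehydrated and 42.8 ± 13.8 in control pools, and its ranges of 26.5 to 54.2 in dehydrated and 27.2 to 61.1 in control pools almost coincided. The log2 difference was -0.22 ± 0.21, and single pools moved it, from -0.36 without dehydrated replicate 1 and -0.35 without control replicate 1 up to -0.13 without dehydrated replicate 5 and -0.08 without control replicate 2. A pair of further probe sets carried the symbols Snurf and Snrpn together and were not used.

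Gnas encodes the stimulatory G protein alpha subunit, which couples peptide hormone receptors to cyclic AMP, and its complex locus also gives paternally and maternally read transcripts from other starts. In mouse the G protein subunit is read mainly from the maternal copy in the paraventricular nucleus. Its 3 probe sets all averaged higher in dehydrated pools and all overlapped between the groups, and which of the locus's transcripts each one reads was not given in the sources used here. Probe set 1387906_a_at had 2162.5, 1751.7, 2217.9, 2319.8 and 2128.4 in dehydrated pools 1 to 5, and 1487.6, 1794.3, 1609.2, 1996.6 and 1734.9 in control pools 1 to 5. There dehydrated replicate 2 alone lay within the control range, and the other 4 dehydrated pools lay above it (log2 difference 0.30 ± 0.08, and 0.24 to 0.36 when single arrays were left out).

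Gnas probe set 1369897_s_at averaged 4817 ± 520 in dehydrated and 4240 ± 283 in control pools (log2 difference 0.18 ± 0.07). Its signals lay near the ceiling of the arrays, whose highest signal was 4558 to 6284, and its difference depended on the setting, being 0.02 with quantile normalization. Probe set 1390263_at had 29.9, 50.2, 41, 33.5 and 45 in dehydrated pools 1 to 5, and 26.9, 21.5, 32.5, 27.4 and 21.8 in control pools 1 to 5. Only dehydrated replicate 1 and control replicate 3 crossed, and the log2 difference was 0.55 ± 0.17, or 0.20 with a pseudocount of 64.

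Cdkn1c, H19 and Grb10 are growth restrainers read from the maternal copy in most tissues, and their dehydrated and control pools overlapped in every probe set. Cdkn1c, the cyclin-dependent kinase inhibitor p57, averaged 94.96 ± 7.18 in dehydrated and 95.64 ± 14.6 in control pools (SD, n = 5 each), which put its log2 difference at -0.00040 ± 0.11, or -0.06 to 0.06 when single arrays were left out. H19, a long noncoding RNA next to Igf2, lay near the filter, with 21.3 to 37.7 in dehydrated and 19 to 35.2 in control pools (log2 difference 0.27 ± 0.19).

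Grb10 encodes an adaptor that binds and dampens the insulin and IGF1 receptors, and in mouse neurons it is read from the paternal copy. Its leading probe set, 1371517_at, averaged 474 ± 33.5 in dehydrated and 505 ± 15.3 in control pools (log2 difference -0.09 ± 0.06, or -0.06 without dehydrated replicate 1). The second, 1397211_at, had 90.1, 92.9, 103.4, 58.2 and 78.3 in dehydrated pools 1 to 5, and 110.8, 103.8, 119.1, 109.4 and 77.5 in control pools 1 to 5. All but control replicate 5 of the control pools lay above all dehydrated pools, and the log2 difference was -0.30 ± 0.14, or -0.18 without dehydrated replicate 4. The third, 1394610_at, was under the filter, at 1.9 to 21.1 in dehydrated and 2.6 to 16.4 in control pools (log2 difference 0.04 ± 0.44).

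Mest, a paternally read gene that encodes a protein of the alpha/beta hydrolase fold and marks growing adipose tissue in mouse, was spread widely. It had 92.7, 42.3, 81.2, 68.8 and 87.8 in dehydrated pools 1 to 5, and 68.4, 70.2, 74.2, 49.1 and 67.7 in control pools 1 to 5. The lowest of all was dehydrated replicate 2, and 4 of the dehydrated pools lay above the control mean of 65.9. The log2 difference was 0.13 ± 0.18, and single pools moved it, to 0.31 without dehydrated replicate 2, to 0.04 without control replicate 4, to 0.05 without dehydrated replicate 1 and to 0.07 without dehydrated replicate 5.

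**Figure D2:**
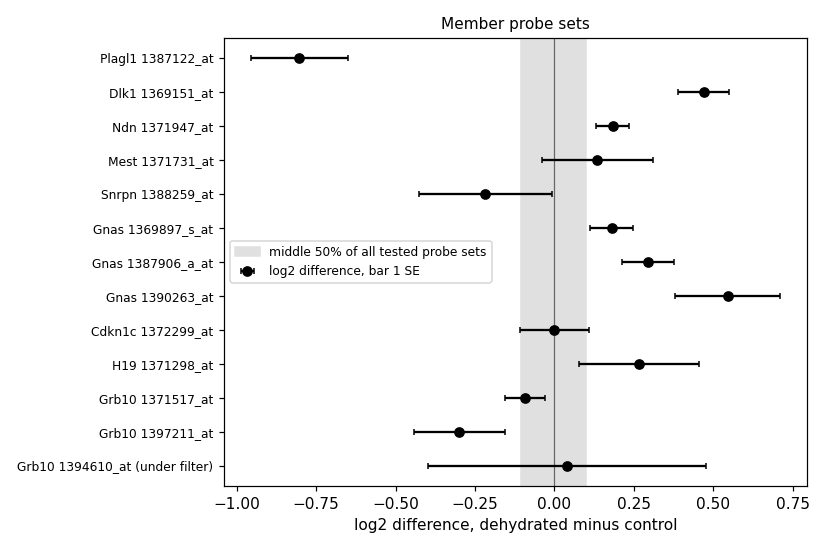
Log2 difference, dehydrated minus control, of the 13 member probe sets, with bars of 1 standard error and a grey band for the interquartile range of all tested probe sets. Plagl1 at -0.80 is the farthest to the left, Dlk1 at 0.47 and Gnas probe set 1390263_at at 0.55 are the farthest to the right, and Cdkn1c sits on 0.

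The members did not move as a block. Of the 12 that passed the filter 7 differed upwards and 5 downwards, with a median log2 difference of 0.16, where the median over all 18629 tested probe sets was -0.0048. In the fit, 2 of the 12, those of Plagl1 and Dlk1, had an adjusted p under 0.05 (limma, Benjamini-Hochberg), where 0.58% of all tested probe sets did. All 5 dehydrated pools lay above all 5 control pools for 2 of the 12, against 1.94% of all tested probe sets, and below them for 1 of the 12, against 1.42%. Since the genes were chosen with this contrast known, nothing is read from these counts, nor from how the calls of members change with arrays or settings. The call of Plagl1 was lost when any of 7 arrays was left out, dehydrated replicates 1, 4 and 5 and control replicates 1, 2, 3 and 4, and also without a filter and without the variance trend.

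Profiles most like that of Plagl1 were sought among 13593 tested probe sets of other genes, by the mean absolute difference of standardised log2 signals over the 10 pools. The 5 nearest were those of Anks1a (0.19 SD units), Fn3krp (0.26), Aif1, Plekha8 and Ak4 (0.29 each). All 5 averaged lower in dehydrated pools, by less than Plagl1. Anks1a had 257 ± 9.11 in dehydrated and 286 ± 12.4 in control pools (log2 difference -0.15 ± 0.06), and the adenylate kinase gene Ak4 had 187 ± 18.9 and 249 ± 23.3 (log2 difference -0.41 ± 0.09). Aif1, a microglial gene, had 79.7 ± 9.32 in dehydrated and 108 ± 11.4 in control pools (log2 difference -0.42 ± 0.11). On its own it does not stand for microglia as a whole, and the part of microglia in these profiles was not tested. Of 7 tested microglial markers, Aif1 included, 2 differed upwards and 5 downwards. The summed signal of 9 such markers averaged 2504 ± 158 in dehydrated and 2390 ± 97.3 in control pools. Ctss, 1 of the 2 that differed upwards, gave most of that sum, at 1655 ± 175 in dehydrated and 1478 ± 107 in control pools. The 5 nearest genes were picked by their likeness to Plagl1, so no test is given. Among the members, Grb10 was nearest to Plagl1, at 0.64 SD units and place 649 of the 13593, and Dlk1 was farthest, at 1.66 and place 13531.

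**Figure D3:**
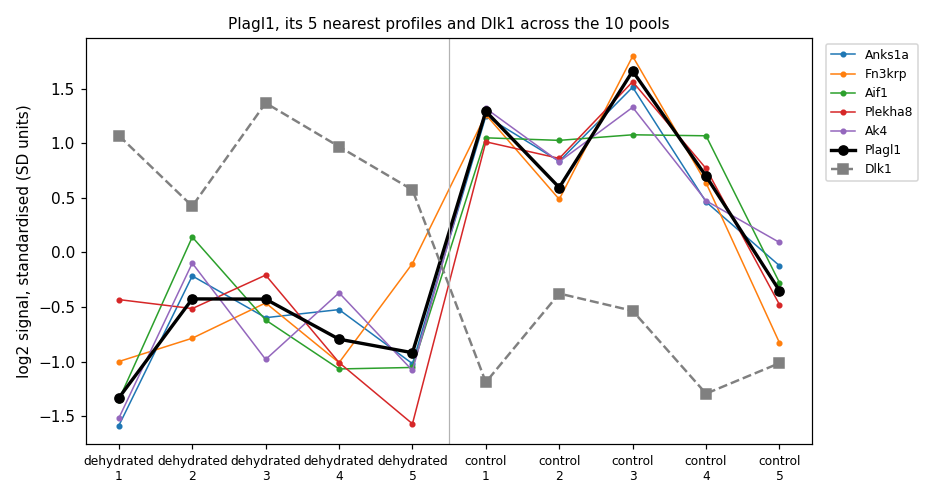
Log2 signal of Plagl1 (black), its 5 nearest probe sets (thin lines) and Dlk1 (grey, dashed) in each of the 5 dehydrated and 5 control pools, standardised to mean 0 and SD 1 over the 10 pools. Within the control pools each nearest profile, like Plagl1, is highest in replicate 3 and lowest in replicate 5, and Dlk1 runs the opposite way between the groups.

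Genes listed as imprinted outside the member list did not pass. Whether each is imprinted in the rat or in this nucleus was not tested. Of 41 listed, 22 had a tested probe set, 11 differing upwards and 11 downwards with a median log2 difference of -0.0081. In limma 0 rose and 0 fell at an adjusted p under 0.05, and 7 had an unadjusted p under 0.05, against 2368 of all 18629. Among 6 tested genes that the mouse network around Plagl1 also holds, the smallest p were those of Gatm, the first enzyme of creatine synthesis, and Igf2, the fetal growth factor next to H19. Gatm averaged 384 ± 50.3 in dehydrated and 468 ± 29.9 in control pools (SD, n = 5 each; log2 difference -0.29 ± 0.08, limma adjusted p = 0.147). Igf2 averaged 111 ± 23.4 and 137 ± 20.8 (log2 difference -0.30 ± 0.14, limma adjusted p = 0.383), and its difference was -0.18 without dehydrated replicate 4.

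Meg3, a maternally read noncoding RNA of the Dlk1 locus, had 1541 ± 152 in dehydrated and 1650 ± 146 in control pools, a log2 difference of -0.10 ± 0.07 (limma adjusted p = 0.599), or -0.06 without dehydrated replicate 1, beside the higher Dlk1 in dehydrated pools. Igf2r, which clears the Igf2 protein, differed by 0.10 ± 0.07 (limma adjusted p = 0.580). Usp29, which lies beside Peg3 in mouse, averaged 376 ± 19.3 in dehydrated and 298 ± 80.4 in control pools (log2 difference 0.38 ± 0.15, limma adjusted p = 0.309). Control replicate 5, at 167.4, lay below the other control pools at 297.5 to 387.4, and without it the log2 difference of Usp29 was 0.19. Ddc, the aromatic amino acid decarboxylase, and Blcap differed by -0.23 ± 0.09 and -0.14 ± 0.06 (limma adjusted p = 0.314 and 0.350). A call that was missed does not show that these genes stayed the same.

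**Figure D4:**
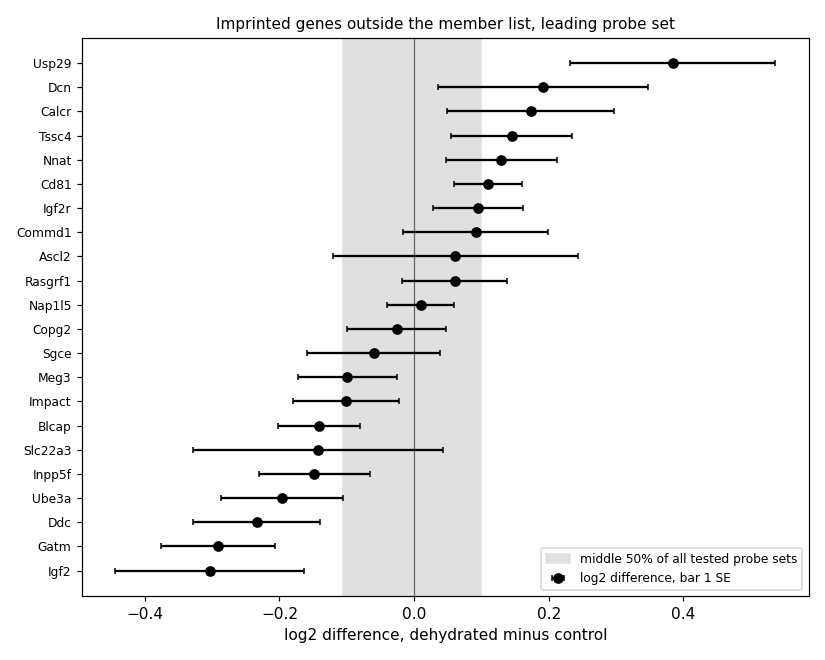
Log2 difference, dehydrated minus control, of the leading probe set of 22 genes listed as imprinted outside the member list. Bars are 1 standard error, and the grey band is the interquartile range of all tested probe sets. Usp29 at 0.38 (0.19 without control replicate 5) is at the top and Igf2 at -0.30 at the bottom, and none passed at an adjusted p under 0.05.

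Genes reported as targets of Plagl1 in cell culture, and its relatives, did not pass either. Of 4 tested targets the largest difference was that of Cdkn1a, the p21 cell cycle inhibitor, at 99.0 ± 12.7 in dehydrated and 69.8 ± 10.7 in control pools (log2 difference 0.48 ± 0.12, limma adjusted p = 0.0808). Adcyap1r1, the PACAP receptor, had 640 ± 67.5 in dehydrated and 633 ± 53.2 in control pools (log2 difference 0.01 ± 0.08, limma adjusted p = 0.959). Tcf4 differed by 0.03 ± 0.07 and Apaf1 by -0.02 ± 0.12 (limma adjusted p = 0.897 and 0.953). Among 9 tested relatives and growth signalling genes the smallest p was that of Igf1r, the IGF1 receptor, with 158 ± 6.08 in dehydrated and 133 ± 12.4 in control pools (log2 difference 0.25 ± 0.08, limma adjusted p = 0.214). The family members Plag1 and Plagl2 differed by -0.10 ± 0.13 and 0.03 ± 0.14, Dlk2 by 0.04 ± 0.12, and the kinase inhibitor gene Cdkn1b by 0.16 ± 0.08 (limma adjusted p = 0.389), or 0.11 without control replicate 5. The differences of Adcyap1r1, Tcf4, Apaf1, Plagl2 and Dlk2 changed sign when some single arrays were left out, and that of Plag1 ran from -0.17 to -0.02. Over both lists 0 of the 13 passed in limma, with 3 at an unadjusted p under 0.05, against 2368 of all 18629. All 5 dehydrated pools lay above all 5 control pools for Cdkn1a and Igf1r, and the other tested genes of both lists overlapped. Of all tested probe sets 1.94% had every dehydrated pool above every control pool.

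Markers of some other cells also differed between the groups. The 9 marker lists were chosen with earlier results of these data known, so p-values for them and their genes are not independent support. The summed signal of 12 oligodendrocyte markers ran from 7484 to 7840 in dehydrated and from 8040 to 9756 in control pools (exact two-sided permutation p = 0.00794, the smallest that 252 assignments allow, adjusted p = 0.0476 over 9 lists). Of the 12, 11 differed downwards and Ermn fell (log2 difference -0.63 ± 0.12, limma adjusted p = 0.0255). That of 4 red blood cell genes, mostly Hbb, ran from 318 to 597 in dehydrated and from 586 to 787 in control pools (exact permutation p = 0.0159, adjusted p = 0.0476), and Hbb fell (log2 difference -0.67 ± 0.13, limma adjusted p = 0.0305). Control replicate 3, highest for Plagl1, had the lowest control sum in both lists, 8040 for oligodendrocytes and 586 for red blood cells, and control replicate 5, lowest for Plagl1, had the highest oligodendrocyte sum, 9756. The part of these cells in the lower Plagl1 was not tested.

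The sum of 8 markers of paraventricular neurons, largely Avp and Oxt, ran from 11458 to 14406 in dehydrated and from 8902 to 11761 in control pools (exact permutation p = 0.0159, adjusted p = 0.0476), with 7 of 7 tested members differing upwards and Pdyn, the prodynorphin gene, rising (log2 difference 0.81 ± 0.10, limma adjusted p = 5.72e-04). The sum of 9 markers of neighbouring hypothalamus ran from 3577 to 6248 in dehydrated and from 4387 to 7270 in control pools (exact permutation p = 0.270, adjusted p = 0.304). Of its 6 tested members 2 differed upwards and 4 downwards. In limma 0 passed, and 4 had an unadjusted p under 0.05, against 2368 of all 18629 tested probe sets. Pmch, which gave most of the sum, averaged 3958 ± 794 in dehydrated and 3867 ± 462 in control pools (log2 difference 0.02 ± 0.11), and Npy differed by 0.05 ± 0.08. On the lower side Hcrt, the orexin gene, averaged 661 ± 377 in dehydrated and 1586 ± 875 in control pools (log2 difference -1.28 ± 0.44, limma adjusted p = 0.233). Hdc averaged 29.2 ± 3.93 and 50.5 ± 17.7 (log2 difference -0.67 ± 0.19, limma adjusted p = 0.135), and Nkx2-1 38.6 ± 4.89 and 57.0 ± 14.3 (log2 difference -0.50 ± 0.16, limma adjusted p = 0.205). No marker in these 4 lists was at 0 on all arrays. With sums of log2 values 0 of the 9 lists were past the threshold, and the 3 calls also ended when any array but control replicate 5 was left out. Among control pools the paraventricular neuron sum, like the oligodendrocyte sum, was lowest in replicate 3, at 8902, and highest in replicate 5, at 11761. The neighbouring hypothalamus sum was lowest in control replicate 5, at 4387, but highest in control replicate 2, at 7270. Hdc and Nkx2-1 were highest in control replicate 3, at 74.9 and 73.7. Nkx2-1, like Plagl1, was lowest of the control pools in replicate 5, at 38.3, whereas Lhx1 was highest there, at 60. The part of dissection and of cell makeup in the differences of Dlk1, Plagl1 and Ndn was not tested. Adjusted p for the lists of pericytes and meninges, endothelium, astrocytes, microglia, and ependyma and choroid plexus were 0.587, 0.1, 0.1, 0.304 and 0.304.

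**Figure D5:**
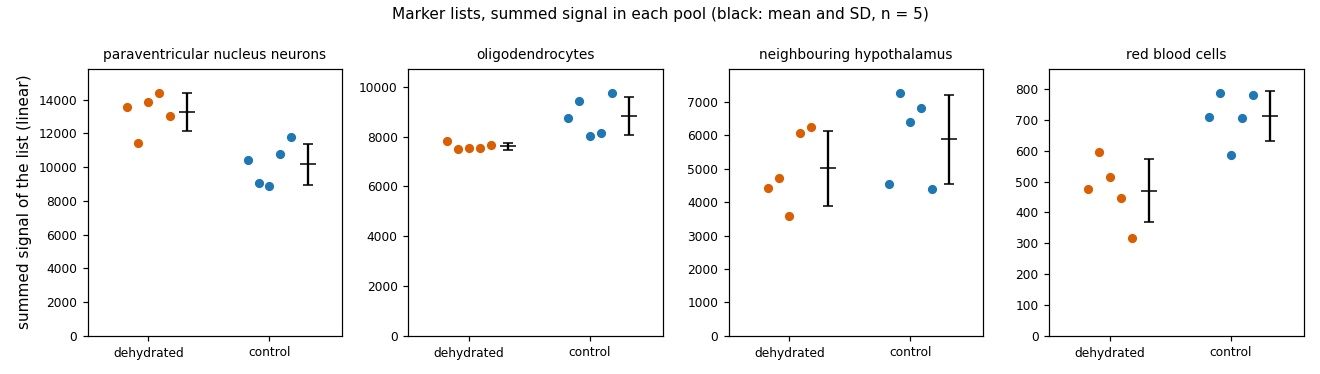
Summed linear signal of 4 marker lists in each of 5 dehydrated (orange) and 5 control (blue) pools, with the mean and SD in black and axes from 0. Oligodendrocyte sums lie lower in every dehydrated pool, red blood cell and paraventricular neuron sums overlap in part, and those of neighbouring hypothalamus overlap widely.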

How the data were processed

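Total RNA of 10 pools was amplified and hybridised to 1 array each. The intensity values were deposited by the authors as linear probe set signals made with GCOS 1.2, per the submitters' processing notes, while the sources used here do not give the signal algorithm, its background step or the scaling. Trimmed means were alike across arrays, from 99.5 to 100.0, as after scaling each to a shared target. Such signals compress at the top and hold background at the bottom. The number of arrays limits the precision. Of 31099 probe sets 57 controls were left out, which held both missing values. Symbols came from the platform annotation, and for genes other than members were updated through Entrez identifiers (20758 of 20826 single-symbol probe sets).

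Groups came from the source labels, with replicates numbered in accession order. Values were taken as log2(signal + 3.72), the pseudocount being 0.1 of the median array median, and compared with lmFit and eBayes (trend) (limma 3.58.1, R 4.3.3). Tests were two-sided, and p-values were adjusted by Benjamini-Hochberg across the 18629 probe sets. The fit was tested on simulated data. The probe set with the highest mean signal stood for a gene of a list, and marker sums were compared by exact permutation. The members, the 4 gene lists and the 9 marker lists were chosen with earlier results of these data known. Named were every member probe set and the 5 profiles nearest to Plagl1. Of each gene list up to 3 genes with the smallest p were named, and of marker lists up to 2. A few others (Meg3, Sim1, Crh, Trh, Adcyap1r1, Hcrt, Pmch, Npy, Lhx1 and the Plag and Dlk relatives) were chosen with their values known. Alternatives were other scalings, pseudocounts, filters, variance models, array weights, the mean over a gene's probe sets, and each array left out.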

Additional observations from a re-analysis of the deposited data

Results flagged for a closer look

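In 1 of the 26 groups of 5 pools formed by the 13 member probe sets, a single pool lay far from the other 4. This was Mest in control replicate 4, with a signal of 49.1 where the next lowest control pool had 67.7 and the highest 74.2. Chance alone sets such a pool apart in about 1 in 20 groups.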

How the results depend on the processing

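No paired analysis was possible because the labels carry no replicate numbers that link pools across groups. The count of member probe sets past the threshold was 2, and it was 1 without a filter and 1 without the variance trend, 1 to 3 with each array left out and 3 with probe sets averaged per gene; the third was Gnas, also past it without dehydrated replicate 2. Over all probe sets the count was 108, against 64 without a filter, 45 without the variance trend, 201 with array weights, and 46 (without dehydrated replicate 3) to 148 (without control replicate 5) with arrays left out. For the listed genes that are no members it was 0 in all 20 alternatives. Of 249 member differences recomputed under alternatives 237 kept their sign, and the 12 that changed belonged to Cdkn1c and the third Grb10 probe set, both near 0. Plagl1 ran from -0.95 to -0.58 and Dlk1 from 0.35 to 0.50. Of the 9 marker lists 3 were past the threshold, 0 with sums of log2 values, and 0 to 3 with arrays left out (3 only without control replicate 5), where only 126 assignments exist. Leaving out arrays and changing the filter alter the number of arrays or of probe sets tested; otherwise the cause was not tested.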
